A study of Mus musculus with 11 samples.

Results

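The genes described here are 42 macrophage and leukocyte genes, measured in mouse tibialis anterior, a muscle of the lower leg. They form a list of symbols grouped by known role, which was chosen with earlier results of these data known. Their shares set beside those of all genes are therefore descriptive and no independent support. Each gene was read from its probe set with the highest mean signal over the 11 arrays. All 42 were found among the 18193 genes that the probe annotation names. By role, 21 are phagocyte genes, 3 are complement genes, 3 serve antigen presentation, 4 are chemokines or chemokine receptors and 11 are expressed across leukocytes. By that probe set 41 of the 42 were tested. The exception was Trem2, a lipid-sensing receptor of phagocytes, whose brighter probe set exceeded the array median on too few arrays (signals of 42.6 to 671). Its other probe set (mean signal 222) was tested with denervation and did not pass in control (log2 1.01, limma adjusted p = 0.489) or mutant muscle (0.33, limma adjusted p = 0.852).

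The study compared innervated muscle with muscle denervated for 3 days, in 2 genotypes. Control mice were runx1f/-, with a floxed allele and a null allele of the transcription factor gene Runx1. Mutant mice had the same alleles and MCK::cre, a Cre recombinase transgene under the promoter of muscle creatine kinase. Control muscle was measured on 3 innervated and 3 denervated arrays, and mutant muscle on 2 innervated and 3 denervated ones. For denervated control 3 a treatment note says 5 days in place of 3. Every group carried the runx1f/- alleles, so no wild-type muscle is used here, and since the mutant groups alone carried Cre, its own effect and that of the Runx1 deletion cannot be told apart. The promoter of the Cre transgene is active in muscle fibres, so leukocytes are not its labelled target. The labels do not say that replicates came from separate animals, so p-values measure the spread between these samples, which may be technical.

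Macrophages reside in healthy muscle between the fibres, and monocytes from the blood can add to them when the tissue is disturbed. Csf1r, the receptor that sustains macrophages, and the complement component C1q are typical of tissue macrophages. Cd68, Lgals3 and Gpnmb belong to the lysosomal and phagocytic machinery and mark macrophages that take up debris, though they are not restricted to them. Ptprc (CD45) and Itgb2, the integrin beta chain shared by leukocytes, are present on nearly all leukocytes, and class II histocompatibility molecules present peptides on macrophages, dendritic cells and B cells.

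Promoter windows were read from RefSeq (build GRCm38.p6) for 28 of the 42 genes, which gave 31 windows of 250 bases before and 50 bases after the start. Each of 3 motifs was searched on both strands. GAGGAAG, the core bound by PU.1, a transcription factor of macrophages, was found in 9 of 31 windows (29%), against 13.6% of all 32851 windows. TGTGGT, the core bound by RUNX factors, was found in 9 of 31 (29%), against 16.8% of all windows. TGANTCA, a looser form of the core bound by AP-1 with any base at N, was found in 6 of 31 (19.4%), against 7.81% of all windows. The matches in Trem2 and Cybb were TGAATCA, with A where the usual AP-1 core has C or G. These are letter matches and not measured binding, and some windows belong to the same gene. The upstream bases of 6 genes are printed 5′ to 3′ on the gene's strand, with matches in capitals. Lgals3, C1qc, Cx3cr1 and Cd53 had the largest rise with denervation of control muscle within their class among genes with a window, and Cd68 and Gpnmb were added after their values were seen. In the bases after the start, which are not printed, Gpnmb also had an AP-1 match at 9 and Cd53 a PU.1 match at 8.
Lgals3, a galectin, chr14:47373610-47373859, plus strand, no match: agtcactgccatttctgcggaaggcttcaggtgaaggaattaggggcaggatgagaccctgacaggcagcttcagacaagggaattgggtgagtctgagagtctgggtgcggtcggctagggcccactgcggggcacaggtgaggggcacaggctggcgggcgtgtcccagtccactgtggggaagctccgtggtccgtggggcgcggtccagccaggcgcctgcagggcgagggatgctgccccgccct
Cd68, a lysosomal glycoprotein, chr11:69666171-69666420, minus strand, AP-1 matches at -149 and -24 from the start: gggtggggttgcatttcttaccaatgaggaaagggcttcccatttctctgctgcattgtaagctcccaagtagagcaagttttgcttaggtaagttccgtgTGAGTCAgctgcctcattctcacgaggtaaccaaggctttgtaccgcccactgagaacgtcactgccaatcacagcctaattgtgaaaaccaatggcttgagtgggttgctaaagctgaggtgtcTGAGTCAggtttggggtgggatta
Gpnmb, a glycoprotein of lysosomes and phagosomes, chr6:49036268-49036517, plus strand, a RUNX match at -175: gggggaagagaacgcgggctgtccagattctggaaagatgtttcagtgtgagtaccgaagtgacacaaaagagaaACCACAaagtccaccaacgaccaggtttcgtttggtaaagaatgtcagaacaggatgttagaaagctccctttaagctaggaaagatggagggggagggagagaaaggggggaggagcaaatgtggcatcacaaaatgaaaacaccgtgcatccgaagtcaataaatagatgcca
C1qc, the C chain of complement C1q, chr4:136892915-136893164, minus strand, a PU.1 match at -194 and a RUNX match at -132: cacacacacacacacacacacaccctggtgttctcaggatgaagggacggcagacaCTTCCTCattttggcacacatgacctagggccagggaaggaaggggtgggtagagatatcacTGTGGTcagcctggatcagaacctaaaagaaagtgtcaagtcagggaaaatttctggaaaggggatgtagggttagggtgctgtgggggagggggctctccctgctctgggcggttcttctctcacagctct
Cx3cr1, the receptor of fractalkine on monocytes and macrophages, chr9:120068297-120068546, minus strand, a RUNX match at -54: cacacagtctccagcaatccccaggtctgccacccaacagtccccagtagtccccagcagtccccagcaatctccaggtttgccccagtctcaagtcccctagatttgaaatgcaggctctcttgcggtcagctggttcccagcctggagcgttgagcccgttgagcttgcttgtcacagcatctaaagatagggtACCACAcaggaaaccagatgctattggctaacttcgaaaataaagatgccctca
Cd53, a leukocyte tetraspanin, chr3:106790150-106790399, minus strand, a RUNX match at -250: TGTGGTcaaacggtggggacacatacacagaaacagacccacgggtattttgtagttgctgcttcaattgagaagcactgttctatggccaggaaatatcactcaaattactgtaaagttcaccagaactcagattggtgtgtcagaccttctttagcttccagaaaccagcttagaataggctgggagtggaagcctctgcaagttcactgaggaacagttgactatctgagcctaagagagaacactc

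Signals are linear intensities that the authors scaled to the same trimmed mean on every array. Array medians ranged from 441 to 603, and precision is limited by how few arrays there are. Runx1 itself gave signals of 179 to 519 in innervated control, 23499 to 25898 in denervated control, 288 to 395 in innervated mutant and 20403 to 23185 in denervated mutant muscle. Its probe set is not known here to lie in the deleted part, so this checks nothing about the deletion. Bacterial trp control probe sets, which should carry no signal from muscle RNA, reached 440. A group mean at or below that level was found for 8 of the 42 genes in innervated control, 4 in denervated control, 13 in innervated mutant and 2 in denervated mutant muscle, and the size of a fold against such a mean rests on background. In a whole muscle, a change in the number of cells of a type cannot be told apart from a change in RNA per cell. Changes are given as log2 differences of signal plus 16 with the standard error of the fit, which understates the change of dim genes, and a gene passed at a limma adjusted p under 0.05 over all probe sets.

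**Figure D1:**
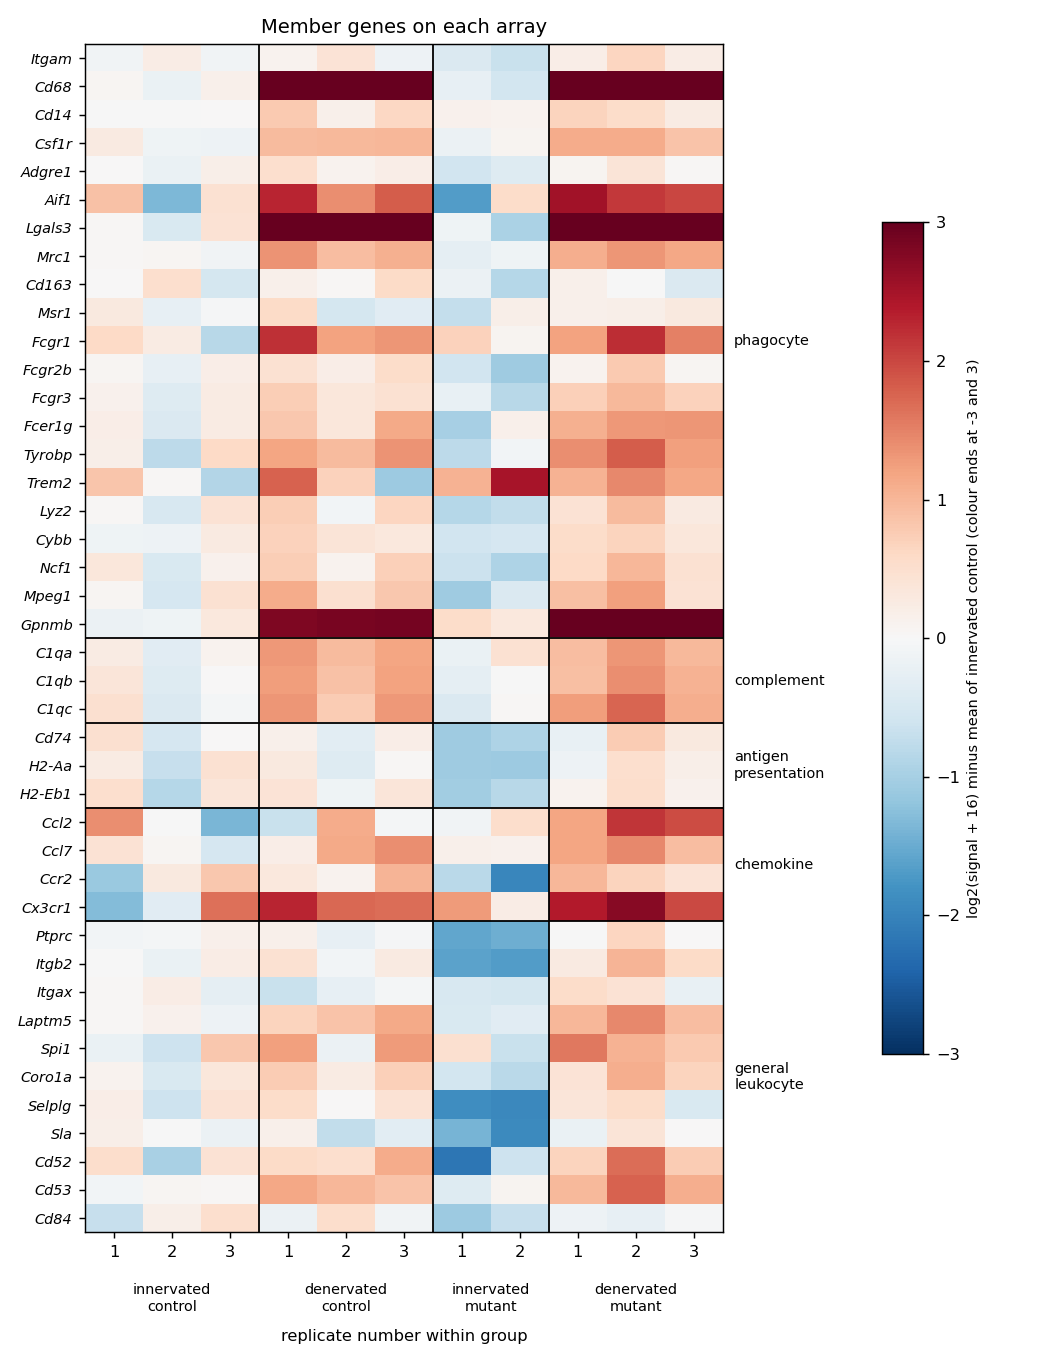
Log2(signal + 16) of each of the 42 genes on each of the 11 arrays, minus the gene's mean in innervated control muscle, with red above and blue below that mean and classes divided by lines. Cd68, Lgals3 and Gpnmb are dark on all denervated arrays of both genotypes, and general leukocyte and antigen presentation genes are mostly blue in innervated mutant muscle.

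Denervation of control muscle raised a subset of the macrophage genes. Of 41 tested, 14 rose and 0 fell (34.1% rose), against 18.1% of all 12192 tested genes that rose and 16.4% that fell. The median log2 change was 0.52, against -0.01 over all genes, and 36 of 41 changes were above 0. The denervated arrays lay wholly above the innervated ones for 20 of 41 (48.8%), against 24.2% of all genes, and wholly below for 0, against 22.6%. Aif1, Fcgr1 and Cx3cr1, which are among the 14 and the 20, exceeded array medians on denervated arrays alone. They were thus tested only through the arrays where they are high, which favours a rise. The risers were 8 of 20 phagocyte genes, all 3 complement genes, 1 of 4 chemokine genes and 2 of 11 general leukocyte genes, and 0 of 3 antigen presentation genes passed (0 at an unadjusted p under 0.05). Centring the arrays on their hybridisation spike-ins put the all-gene median at 0.94 and moved the calls to 8207 higher and 324 lower, against 2203 and 2002 in the deposited scale. With that centring 37 of the 41 passed, with a median of 1.47, so the counts describe changes relative to the bulk of the muscle's RNA.

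The largest rises were those of lysosomal and phagocytic genes. Cd68 gave signals of 972, 806 and 1039 in innervated control, 16151, 12073 and 14283 in denervated control, 781 and 630 in innervated mutant and 17053, 19827 and 27214 in denervated mutant muscle. The denervated arrays of both genotypes stood far above all 5 innervated arrays without overlap. The rise was 14.8-fold in control (log2 3.89 ± 0.19, limma adjusted p = 2.36e-08) and 29.2-fold in mutant muscle (log2 4.87 ± 0.21, limma adjusted p = 1.52e-08). Lgals3, a galectin of activated macrophages, gave 2325, 1670 and 3073 in innervated control, 56457, 36336 and 19467 in denervated control, 2089 and 1166 in innervated mutant and 42393, 36411 and 48374 in denervated mutant muscle. Denervated control 3, whose note gives 5 days, was the lowest denervated array, yet it lay above every innervated one. The Lgals3 rise was 14.9-fold in control (log2 3.89 ± 0.34, limma adjusted p = 2.65e-06) and 26.7-fold in mutant muscle (log2 4.74 ± 0.38, limma adjusted p = 1.88e-06).

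Gpnmb rose in both genotypes and was highest in denervated mutant muscle. Its signals were 614, 634 and 871 in innervated control, 4970, 5107 and 5180 in denervated control, 1030 and 868 in innervated mutant and 16822, 22144 and 20349 in denervated mutant muscle. Within each genotype the denervated arrays stood above the innervated ones, and the lowest denervated mutant array stood above every denervated control array. Gpnmb rose 7.15-fold in control (log2 2.84 ± 0.17, limma adjusted p = 1.01e-07) and 20.4-fold in mutant muscle (log2 4.35 ± 0.19, limma adjusted p = 1.52e-08). A second, dim probe set of Gpnmb (mean signal 291) had log2 changes of 1.69 in control (limma adjusted p = 0.0349) and 1.40 in mutant muscle (limma adjusted p = 0.114).

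**Figure D2:**
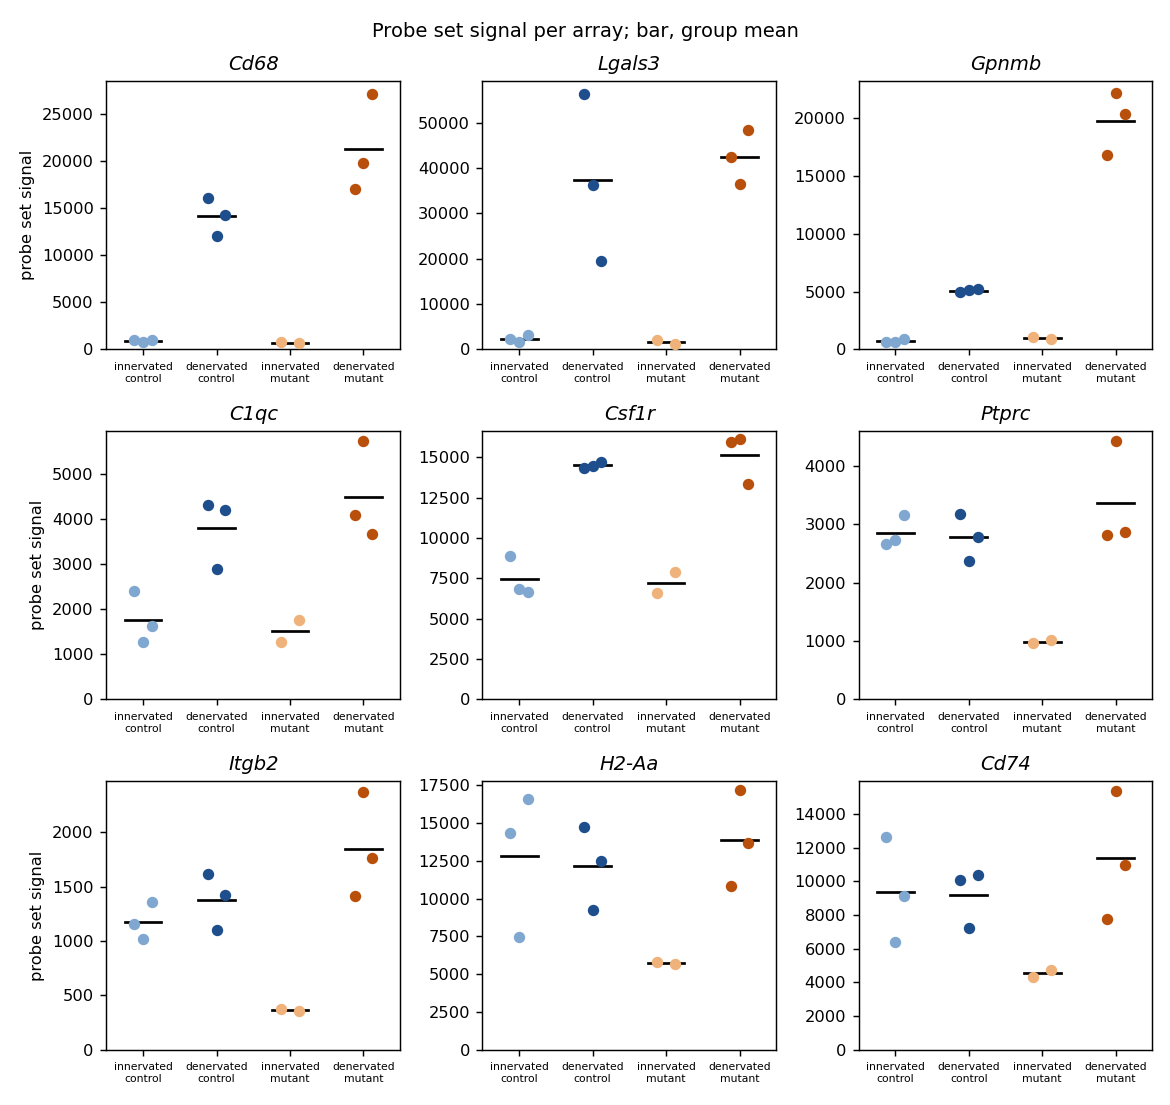
Probe set signal (linear axis from 0) of 9 genes on each array of the 4 groups, with a bar at the group mean. Cd68 and Lgals3 are high in both denervated groups, Gpnmb is highest in denervated mutant muscle (16822 to 22144), and Ptprc and Itgb2 are low in innervated mutant muscle alone among the groups.

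Of the macrophage receptors and adaptors, Csf1r, Mrc1 and Tyrobp rose in control muscle by 0.97 to 1.17 on the log2 scale. Those that did not pass there were Msr1 (-0.11), Itgam (0.12), Cd163 (0.26), Adgre1 (0.26), Fcgr2b (0.40), Fcgr3 (0.51), Cd14 (0.52) and Fcer1g (0.77). Csf1r gave signals of 8901, 6818 and 6677 in innervated control, 14328, 14454 and 14684 in denervated control, 6588 and 7871 in innervated mutant and 15922, 16136 and 13324 in denervated mutant muscle. The 3 denervated control arrays were close together and above all innervated arrays. Csf1r rose by 0.97 ± 0.15 in control (limma adjusted p = 0.00026) and by 1.06 ± 0.16 in mutant muscle (limma adjusted p = 0.000394). Its other probe sets had smaller control values of 0.53 (limma adjusted p = 0.0323) and 0.65 (limma adjusted p = 0.0564), and rose by 0.84 and 0.90 in mutant muscle. Mrc1, the mannose receptor of tissue macrophages, averaged 3675 ± 226 (SD, n = 3) in innervated and 7984 ± 1208 (SD, n = 3) in denervated control muscle, for a rise of 1.11 ± 0.14 (limma adjusted p = 7.87e-05). Tyrobp, the adaptor of activating receptors on phagocytes, averaged 1331 ± 586 (SD, n = 3) and 2813 ± 387 (SD, n = 3), for a rise of 1.17 ± 0.31 (limma adjusted p = 0.0119). Both rose in mutant muscle as well, Mrc1 by 1.38 ± 0.16 and Tyrobp by 1.91 ± 0.35.

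The remaining phagocyte risers in control muscle were dim when innervated. Aif1, an actin-binding protein of macrophages (IBA1), gave 343, 60.9 and 249 in innervated control and 933, 495 and 670 in denervated control muscle, without overlap. Its log2 change was 1.83 ± 0.63 (limma adjusted p = 0.0423) in control and 2.78 ± 0.70 in mutant muscle (limma adjusted p = 0.0107). Fcgr1, the high-affinity receptor of immunoglobulin G, gave 333, 259 and 114 in innervated and 1045, 518 and 567 in denervated control muscle, also without overlap. Fcgr1 changed by 1.58 ± 0.44 in control (limma adjusted p = 0.0166), and its mutant value of 1.24 ± 0.50 did not pass (limma adjusted p = 0.0822). Its second probe set had a control value of -0.22 (limma adjusted p = 0.725). The innervated control means of both genes lay within the trp range, and all their innervated signals lay below the array medians. Both were thus tested through their denervated arrays alone, which favours a rise. Aif1's control call was lost without denervated control 1 (limma adjusted p = 0.136), 2 (0.0609) or 3 (0.0883), without innervated control 2 (0.139), without any single denervated mutant array (0.0591 to 0.0612), without the filter (0.0579), without the variance trend (0.0571), and with the replicate number as a block (0.0575). Fcgr1's was lost without denervated control 1 (limma adjusted p = 0.0822) or innervated control 3 (0.0604) and with the mean of its probe sets (0.165).

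The chains of C1q, which starts the classical complement pathway, rose in both genotypes. C1qa gave 2507, 1673 and 2287 in innervated control, 5289, 4144 and 4830 in denervated control, 1862 and 2928 in innervated mutant and 4032, 5351 and 4180 in denervated mutant muscle. C1qb gave 3922, 2352 and 3093 in innervated control, 7337, 5610 and 7109 in denervated control, 2532 and 3019 in innervated mutant and 5711, 8081 and 6348 in denervated mutant muscle. C1qc gave 2403, 1266 and 1630 in innervated control, 4308, 2881 and 4201 in denervated control, 1268 and 1761 in innervated mutant and 4076, 5721 and 3656 in denervated mutant muscle. For all 3 chains every denervated array stood above every innervated array. The control rises were 1.15 ± 0.21 for C1qa (limma adjusted p = 0.00105), 1.12 ± 0.20 for C1qb (limma adjusted p = 0.00102) and 1.12 ± 0.26 for C1qc (limma adjusted p = 0.00486). The mutant rises were 0.94 ± 0.23 for C1qa (limma adjusted p = 0.00997), 1.26 ± 0.23 for C1qb (limma adjusted p = 0.0012) and 1.55 ± 0.29 for C1qc (limma adjusted p = 0.00152). The other probe sets of C1qb rose by 1.18 and 0.68 in control muscle. In mutant muscle the brighter of them rose too (limma adjusted p = 0.00312), and the dimmer had 0.41 (limma adjusted p = 0.278). Without innervated mutant 1, the C1qa value in mutant muscle was 0.61 (limma adjusted p = 0.136). Leaving out either innervated mutant array leaves that group with 1 array, which is then assumed to vary like the arrays of the other groups, here and in each such value that follows.

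The 3 class II genes H2-Aa, Cd74 and H2-Eb1 did not pass when control muscle was denervated, and rose when mutant muscle was. Other tested class II genes did not pass in mutant muscle, with values of 0.69 for H2-Ab1 (limma adjusted p = 0.114), 0.85 for H2-DMa (limma adjusted p = 0.162) and -1.25 for H2-Eb2 (limma adjusted p = 0.11). H2-Aa, a class II alpha chain, gave 14359, 7425 and 16583 in innervated control, 14765, 9212 and 12456 in denervated control, 5779 and 5685 in innervated mutant and 10813, 17186 and 13662 in denervated mutant muscle. The control groups overlapped, and the innervated mutant arrays were the lowest of all 11. Its control value was -0.02 ± 0.27 (limma adjusted p = 0.967) and its mutant rise 1.25 ± 0.31 (limma adjusted p = 0.00894). The other tested probe sets of H2-Aa rose in mutant muscle by 1.13 ± 0.33 and 1.20 ± 0.32. Cd74, the invariant chain that escorts class II molecules, had a control value of 0.01 ± 0.27 (limma adjusted p = 0.985) and rose by 1.27 ± 0.30 in mutant muscle (limma adjusted p = 0.00692). H2-Eb1, a class II beta chain, had 0.22 ± 0.29 in control (limma adjusted p = 0.629) and rose by 1.19 ± 0.33 in mutant muscle (limma adjusted p = 0.017). Each of these 3 mutant calls was lost without innervated mutant 1, with limma adjusted p = 0.0512 for H2-Aa, 0.0545 for Cd74 and 0.107 for H2-Eb1. H2-Aa (0.0569) and H2-Eb1 (0.0609) also lost theirs without innervated mutant 2, and H2-Eb1 (0.0608) without denervated mutant 2.

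Of the chemokine genes, Cx3cr1 rose in control muscle. It gave 35.3, 84.8 and 383 in innervated control, 607, 406 and 389 in denervated control, 294 and 132 in innervated mutant and 641, 833 and 490 in denervated mutant muscle. Innervated control 3 lay just under the lowest denervated control array, and the innervated means lay within the trp range. Every innervated signal of Cx3cr1 lay below its array median, so it too was tested through denervated arrays alone. The control change was 1.90 ± 0.65 (limma adjusted p = 0.0435), while the mutant value of 1.61 ± 0.73 did not pass (limma adjusted p = 0.121). The control call was lost with the replicate number as a block (limma adjusted p = 0.0562), without the filter (0.0543), with the control arrays fitted alone (0.109), without any single control array (0.0735 to 0.15, innervated control 3 excepted) and without any single denervated mutant array (0.0605 to 0.065). Ccr2, the receptor that draws monocytes out of the blood, gave 553, 1494 and 2141 in innervated control, 1518, 1311 and 2482 in denervated control, 687 and 298 in innervated mutant and 2425, 1926 and 1607 in denervated mutant muscle. The control groups overlapped (log2 0.49 ± 0.44, limma adjusted p = 0.45), whereas the mutant groups did not (log2 2.07 ± 0.49, limma adjusted p = 0.00726). Without innervated mutant 2 the mutant value of Ccr2 was 1.49 (limma adjusted p = 0.105). Its other probe sets had mutant values of 1.28 (limma adjusted p = 0.0125) and 0.19 (limma adjusted p = 0.758). Ccl2 and Ccl7, ligands that draw monocytes, were dim, with signals of 55.4 to 804 and 126 to 530 over the 11 arrays, and neither passed in any comparison.

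The general leukocyte genes divided in control muscle. Laptm5, a lysosomal protein of leukocytes, gave 1584, 1692 and 1389 in innervated control and 2489, 2808 and 3424 in denervated control muscle, without overlap. It rose by 0.89 ± 0.18 in control (limma adjusted p = 0.00238) and by 1.52 ± 0.20 in mutant muscle (limma adjusted p = 0.000134), while its 4 other probe sets ranged from -0.25 to 2.07 in control and from -1.06 to 1.21 in mutant muscle. The lowest of these in mutant muscle lay in the opposite direction and did not pass (limma adjusted p = 0.0723). Cd53 gave 938, 1038 and 1025 in innervated and 2250, 2004 and 1815 in denervated control muscle, again without overlap. Cd53 rose by 1.00 ± 0.22 in control (limma adjusted p = 0.0037) and by 1.43 ± 0.24 in mutant muscle (limma adjusted p = 0.000895). The other 9 did not pass in control muscle, with log2 values from -0.32 for Itgax, an integrin alpha chain of dendritic cells and macrophages, to 0.78 for Spi1, the gene of PU.1.

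Ptprc and Itgb2 showed this most plainly. Ptprc gave 2669, 2725 and 3162 in innervated control, 3180, 2379 and 2786 in denervated control, 961 and 1018 in innervated mutant and 2814, 4422 and 2871 in denervated mutant muscle. The control groups overlapped, and both innervated mutant arrays lay far below the other 9. The control value was -0.04 ± 0.19 (limma adjusted p = 0.898) and the mutant rise 1.72 ± 0.21 (limma adjusted p = 7.41e-05). Itgb2 gave 1161, 1015 and 1360 in innervated control, 1614, 1106 and 1425 in denervated control, 372 and 356 in innervated mutant and 1414, 2370 and 1763 in denervated mutant muscle. Its innervated mutant arrays too were the lowest, and their mean lay within the trp range, so the size of its mutant rise rests on background. Itgb2 had a control value of 0.22 ± 0.23 (limma adjusted p = 0.512) and rose by 2.26 ± 0.25 in mutant muscle (limma adjusted p = 3.03e-05).

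Denervation of mutant muscle raised a larger share of the genes. These changes were taken against 2 innervated mutant arrays, which lay wholly below the innervated control arrays for 18 of the 41 tested genes. The median genotype difference was -0.52 in innervated and 0.23 in denervated muscle. How much of the larger share goes with the lower innervated signals was not tested. Of 41 tested, 30 rose and 0 fell (73.2% rose), against 16.7% of all genes that rose and 13.9% that fell. The median log2 change was 1.38, against -0.01 over all genes, and every one of the 41 changes was above 0. Denervated arrays lay wholly above innervated ones for 39 of 41 (95.1%), against 31.2% of all genes, and wholly below for 0, against 29.5%. Among the 39, Itgam, Aif1, Fcgr1, Ccl2, Ccl7, Cx3cr1 and Itgax exceeded array medians on denervated arrays alone, which favours a rise. Of these, Aif1 is also among the 30. By class, 15 of 20 phagocyte, 3 of 3 complement, 3 of 3 antigen presentation, 1 of 4 chemokine and 8 of 11 general leukocyte genes rose. Centring on array medians put the all-gene median at 0.29 and moved the calls to 3326 higher and 786 lower, against 2037 and 1690 in the deposited scale, and 34 of the 41 then passed. Centring on the spike-ins gave 4241 higher and 440 lower, with a median of 0.51 over all genes and 38 of the 41 passing.

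**Figure D3:**
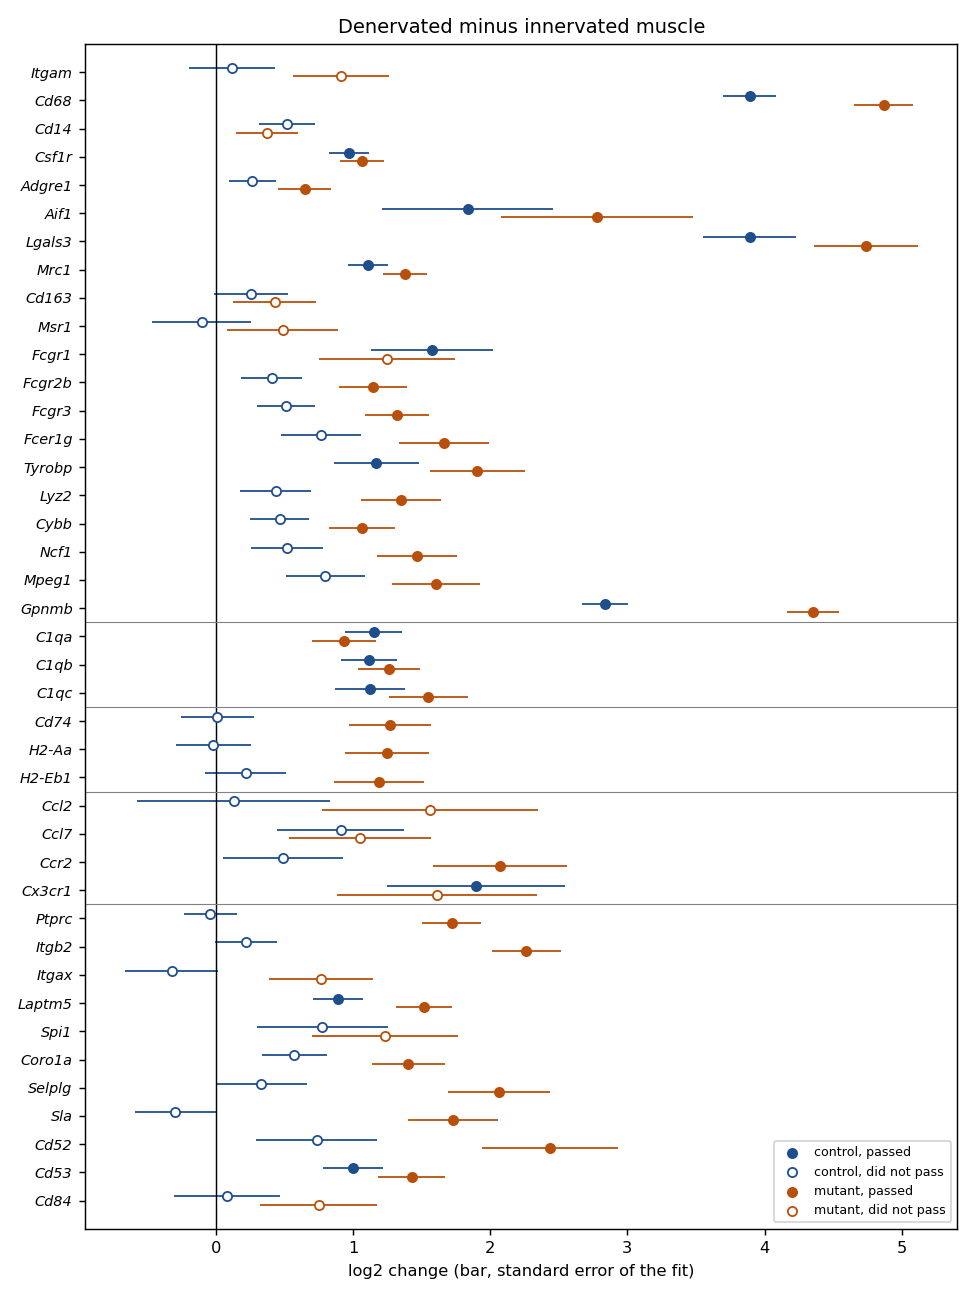
Log2 change with denervation (denervated minus innervated) of the 41 tested genes, in control and in mutant muscle, with bars for the standard error of the fit, filled points for genes that passed and open points for those that did not. In mutant muscle 30 points are filled, against 14 in control, and the filled control points lie mainly among phagocyte and complement genes.

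In both genotypes 12 of the 41 rose: Cd68, Csf1r, Aif1, Lgals3, Mrc1, Tyrobp, Gpnmb, C1qa, C1qb, C1qc, Laptm5 and Cd53. A further 18 passed in mutant muscle and not in control, and Fcgr1 and Cx3cr1 passed in control and not in mutant muscle. How many of all genes passed in both, in 1 or in neither genotype was not counted, so no excess is read from these numbers. Passing in a single genotype does not show that the genotypes differ, which the interaction tests. Among the 18 were 8 phagocyte genes. Their mutant rises ran from 0.65 ± 0.19 for Adgre1 (limma adjusted p = 0.0253), the macrophage receptor F4/80, to 1.66 ± 0.33 for Fcer1g (limma adjusted p = 0.00234), the signalling chain of Fc receptors. The inhibitory and activating Fc receptors Fcgr2b and Fcgr3 rose by 1.14 ± 0.25 and 1.32 ± 0.24. Lyz2, the lysozyme of macrophages and neutrophils, averaged 6386 ± 368 (SD, n = 2) in innervated and 16642 ± 4294 (SD, n = 3) in denervated mutant muscle, for a rise of 1.35 ± 0.29 (limma adjusted p = 0.00419). Cybb and Ncf1, parts of the phagocyte oxidase, rose by 1.06 ± 0.24 and 1.47 ± 0.29, and Mpeg1, a pore-forming protein of macrophages, rose by 1.60 ± 0.32. The other tested probe sets of Cybb (0.14 and 0.33), of Ncf1 (1.39, limma adjusted p = 0.0511, and 1.70, limma adjusted p = 0.0962) and of Fcgr2b (0.57 to 0.72) did not pass in mutant muscle. Of those of Fcgr2b, 1 passed in control muscle (0.88, limma adjusted p = 0.0324), unlike the brightest.

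The other general leukocyte genes that passed in mutant muscle were Selplg, Cd52, Sla and Coro1a. Selplg, the ligand of P-selectin on leukocytes, gave 880, 493 and 1038 in innervated control, 1135, 772 and 1039 in denervated control, 198 and 189 in innervated mutant and 993, 1137 and 556 in denervated mutant muscle. Both innervated mutant arrays were the lowest of the 11, and their mean lay within the trp range. Selplg rose by 2.06 ± 0.37 in mutant muscle (limma adjusted p = 0.00127). Cd52, a small surface glycoprotein, gave 270 and 816 in innervated and 2033, 4118 and 2164 in denervated mutant muscle, a log2 change of 2.44 ± 0.50 (limma adjusted p = 0.00285). Sla, an adaptor of antigen receptor signalling, rose by 1.73 ± 0.33 (limma adjusted p = 0.00183), again from a mean within the trp range, and its other tested probe set had 0.37 (limma adjusted p = 0.651). Coro1a, an actin regulator of leukocytes, rose by 1.40 ± 0.27, and its other tested probe set by 1.41.

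Neither genotype had a call for 9 of the 41 genes. These were Itgam, Cd14, Cd163, Msr1, Ccl2, Ccl7, Itgax, Spi1 and Cd84, with mutant values from 0.37 for Cd14, a receptor of bacterial lipopolysaccharide, to 1.56 for Ccl2. Cd163, the haemoglobin scavenger receptor of resident macrophages, gave overlapping groups in both genotypes (signals of 1354 to 3690 over all 11 arrays). A second probe set of Msr1, a scavenger receptor, had a mutant value of 2.23 (limma adjusted p = 0.00978) against 0.49 for the brighter. Without innervated mutant 1, 23 of the 30 passed; those lost were Aif1 (limma adjusted p = 0.137), Adgre1 (0.154), C1qa, Cd52 (0.0545) and the 3 class II genes. Without innervated mutant 2, 25 passed, and Adgre1 (limma adjusted p = 0.0571) and Fcgr2b (0.0632) were lost beside Ccr2, H2-Aa and H2-Eb1. Without denervated mutant 2, 28 passed, and Adgre1 (limma adjusted p = 0.0951) and H2-Eb1 were lost. With the mean of a gene's probe sets, Ptprc (limma adjusted p = 0.597), Cybb (0.233), Cd53 (0.228), Laptm5 (0.211), H2-Aa (0.0595) and Ccr2 (0.0515) were lost.

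Between genotypes in denervated muscle, Gpnmb was the single gene to pass (1 of 41, 2.44%), against 1.04% of all genes that were higher and 1.12% that were lower in mutant muscle. Its mean signal was 19772 ± 2708 (SD, n = 3) in mutant and 5086 ± 107 (SD, n = 3) in control muscle, a 3.85-fold difference (log2 1.95 ± 0.17, limma adjusted p = 7.68e-05). The call held under all 21 alternatives run, with log2 values from 1.42 to 2.06. The dim second probe set of Gpnmb had 0.90 (limma adjusted p = 0.608). The median over the 41 genes was 0.23, against 0.01 over all genes, and it was -0.23 when arrays were centred on the spike-ins, which put the median of all genes at -0.45 and gave 40 genes higher and 1549 lower, against 127 and 137 in the deposited scale. Centring on array medians gave 135 higher and 84 lower, with a median of 0.11 over all genes.

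Arrays of the 2 genotypes separated in denervated muscle for Cd68, Gpnmb and Ccl2, all higher in mutant muscle (3 of 41, 7.32%), against 12.7% of all genes, and none separated with lower mutant arrays, against 10.4%. Cd68 had a difference of 0.57 ± 0.19 (limma adjusted p = 0.214). Ccl2, the main chemokine for monocytes, gave 100, 385 and 163 in denervated control and 404, 804 and 702 in denervated mutant muscle. Its difference was 1.63 ± 0.70 (limma adjusted p = 0.394), and the control mean lay within the trp range. For C1qb (0.00 ± 0.20), Csf1r (0.06 ± 0.15) and Mrc1 (0.08 ± 0.14) the difference was smaller than its error.

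In innervated muscle no gene at all passed between genotypes with limma (0 of 41, and 0% of all genes in either direction). At an unadjusted p under 0.05, 18 of 41 were counted (43.9%), against 465 of 12192 genes (3.81%). The median over the 41 was -0.52, against 0.00 over all genes, and it kept its sign under every alternative run (-0.64 to -0.40). Innervated mutant arrays lay wholly below innervated control arrays for 18 of 41 (43.9%), against 8.23% of all genes, and wholly above for Cd14 alone (2.44%), against 7.61%. By class, the median was -0.50 for phagocyte, -0.14 for complement, -0.99 for antigen presentation, 0.17 for chemokine and -0.89 for general leukocyte genes.

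The lowest values in innervated mutant muscle were those of Selplg at -1.91 ± 0.37 (limma adjusted p = 0.503), Sla at -1.66 ± 0.33 (limma adjusted p = 0.503), Itgb2 at -1.64 ± 0.25 (limma adjusted p = 0.17) and Ptprc at -1.51 ± 0.21 (limma adjusted p = 0.15). Ptprc's mean was 990 ± 40.2 (SD, n = 2) in mutant and 2852 ± 270 (SD, n = 3) in control muscle, above the trp range in both. Csf1r (-0.04 ± 0.16), C1qa (0.14 ± 0.23) and C1qb (-0.14 ± 0.23) had differences smaller than their errors in the same arrays. The summed signal of the general leukocyte genes was 6267 to 6708 on the innervated mutant arrays and 10962 to 14433 on the innervated control arrays, without overlap. That of the complement genes was 5663 to 7708 against 5291 to 8833, with overlap.

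**Figure D4:**
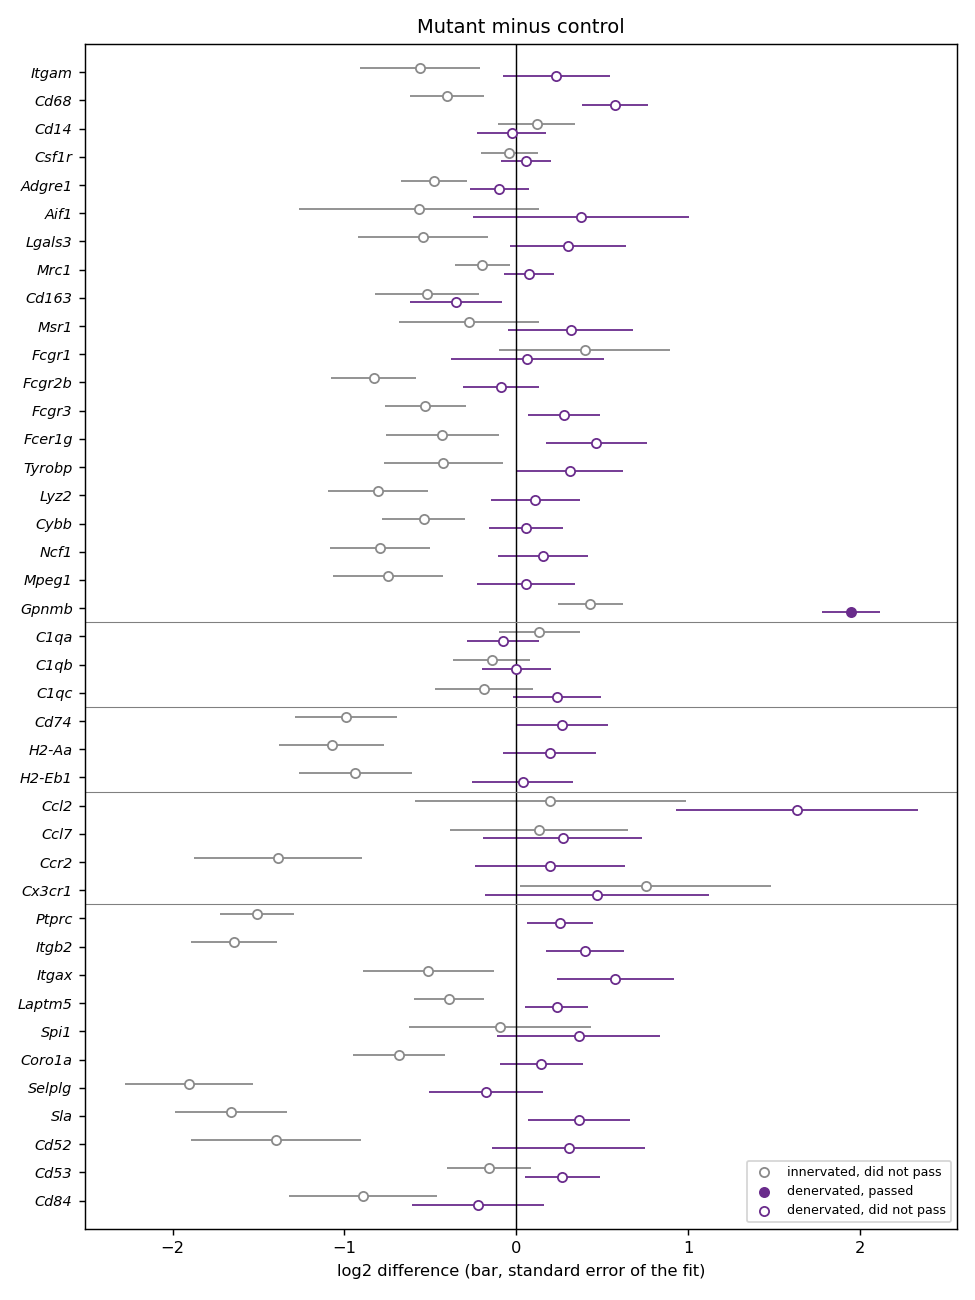
Log2 difference between genotypes (mutant minus control) of the 41 tested genes, in innervated and in denervated muscle, with bars for the standard error of the fit, a filled point for the gene that passed and open points for the rest. Gpnmb in denervated muscle is the filled point at 1.95, and most innervated points lie left of 0, down to -1.91.

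**Figure D5:**
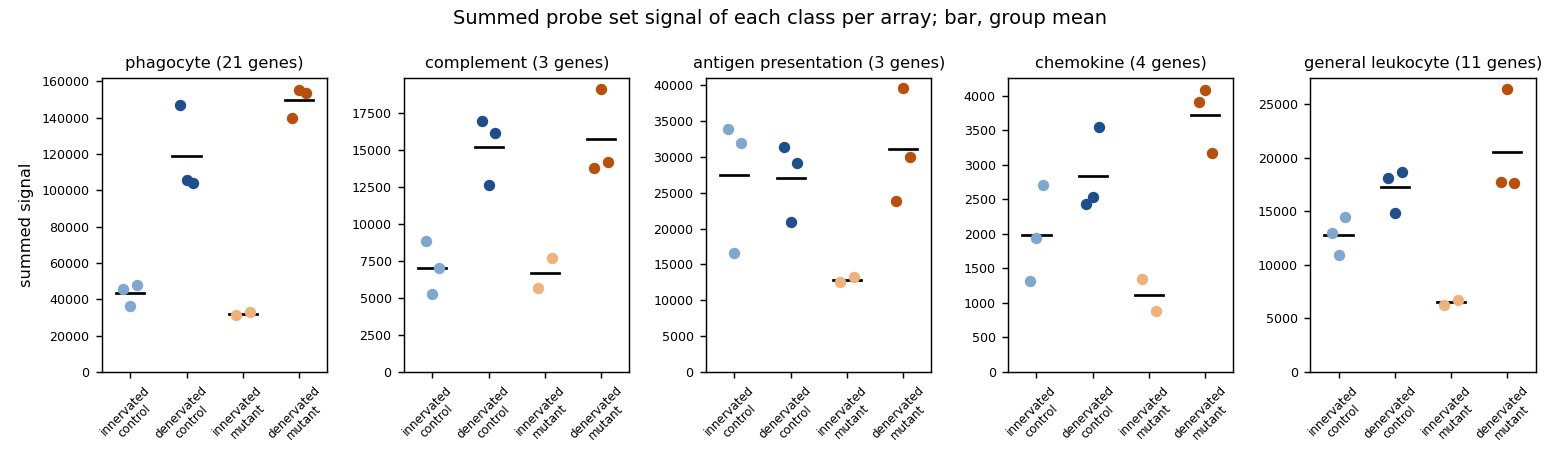
Summed probe set signal (linear axis from 0) of the genes of each class on each of the 11 arrays, with a bar at the group mean. Complement sums are higher in denervated than in innervated muscle of both genotypes, whereas antigen presentation sums overlap between control groups and are lowest in innervated mutant muscle (12478 and 13169).

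The test of whether the denervation change itself differed between genotypes passed for Gpnmb, Ptprc and Itgb2 (3 of 41, 7.32%), all with the larger change in mutant muscle, against 0.123% of all genes in that direction and 0.139% in the other. It uses all 4 groups and so shares its arrays with the comparisons above. Gpnmb differed by 1.52 ± 0.25 (limma adjusted p = 0.0282), Ptprc by 1.76 ± 0.29 (limma adjusted p = 0.0259) and Itgb2 by 2.04 ± 0.34 (limma adjusted p = 0.0276). The dim second probe set of Gpnmb had -0.29 (limma adjusted p = 0.973), opposite in sign. That of Ptprc was too dim to test. Its means, all within the trp range, were 204 in innervated and 103 in denervated control, and 213 and 132 in mutant muscle. On their brightest probe sets, the genotypes stood apart in denervated muscle for Gpnmb, and in innervated muscle for Ptprc and Itgb2. The median over the 41 was 0.81, against 0.01 over all genes, and 17 of 41 had an unadjusted p under 0.05 (41.5%), against 8.16% of all genes. Sla had 2.03 ± 0.44 (limma adjusted p = 0.109) and Selplg 1.73 ± 0.50 (limma adjusted p = 0.277).

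These 3 calls did not hold under every setting, each passing in 10 of 21 alternatives. The 21 are not all distinct here. The interaction needs all 4 groups, so fitting only the groups compared repeats the main fit, and both forms of the replicate block are the same fit. With the replicate number as a block the limma adjusted p was 0.0635 for Gpnmb, 0.0609 for Ptprc and 0.0721 for Itgb2. No call of the 3 passed without innervated mutant 1 (limma adjusted p = 0.0625 to 0.0916) or 2 (0.0986 to 0.138), without denervated control 2 (0.0782 to 0.0839) or without denervated mutant 2 (0.0512 to 0.102). A single call passed without innervated control 1 or 3 (Gpnmb) or denervated mutant 3 (Ptprc), Gpnmb was lost without denervated control 1 (limma adjusted p = 0.0881), and 5 genes passed without innervated control 2. Centring on the spike-ins left no call and put the all-gene median at -0.42, with 3 genes higher and 45 lower against 15 and 17. Centring on array medians kept all 3, with 20 higher and 13 lower and a median of 0.24 over all genes.

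Further genes of the same pathways were listed by function, and members of these lists that had no tested probe set were not analysed here. Of 33 further phagocyte and monocyte genes, 14 rose and 0 fell in control muscle and 19 rose and 0 fell in mutant muscle, with medians of 0.46 and 1.01. The shares that rose were 42.4% and 57.6%, against 18.1% and 16.7% of all genes. Among the risers, Tlr2 and Ncf4 in both genotypes and Pirb in mutant muscle lay below array medians on every innervated array. They were thus tested through denervated arrays alone, which favours a rise. Tlr4, a receptor of bacterial products, rose by 2.70 ± 0.22 in control (limma adjusted p = 1.74e-06) and 2.64 ± 0.25 in mutant muscle. Hmox1, which breaks down haem, rose by 2.48 ± 0.31 in control and 4.11 ± 0.34 in mutant muscle. Lgmn, a lysosomal protease, rose by 1.56 ± 0.13 and 2.21 ± 0.15, and was 0.58 ± 0.13 higher in denervated mutant than in denervated control muscle (limma adjusted p = 0.0471). Csf1, the ligand of Csf1r, was 1.16 ± 0.23 higher in denervated mutant than in denervated control muscle (limma adjusted p = 0.0199).

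Of 12 further complement genes, 3 rose and 1 fell in each genotype. The 25% that rose and 8.33% that fell stand beside 18.1% and 16.4% of all genes in control and 16.7% and 13.9% in mutant muscle, so these shares were near the background. C3ar1, a receptor for a complement fragment, rose by 0.88 ± 0.25 in control and 0.83 ± 0.28 in mutant muscle, and Masp1, a protease of the lectin pathway, fell by 2.24 and 0.96. C1ra, a protease of the C1 complex, rose in control muscle (log2 0.61 ± 0.19, limma adjusted p = 0.0294), and Cfp, the gene of properdin, rose by 2.34 ± 0.32 in mutant muscle (limma adjusted p = 0.000163). In denervated muscle, Clu, an inhibitor of complement, was 1.26 ± 0.23 higher in mutant than in control (limma adjusted p = 0.0117), and Masp1 was 1.11 higher (limma adjusted p = 0.0336). Of 14 further antigen presentation genes, Cd86 rose in control muscle (log2 1.27 ± 0.41, limma adjusted p = 0.0342) and Cd40 fell in mutant muscle (log2 -1.06 ± 0.37, limma adjusted p = 0.049). In each genotype the other 13 did not pass. Cd86 averaged 214 in innervated control muscle, within the trp range. Its innervated signals lay below the array medians, so it too was tested through denervated arrays alone, which favours a rise. In control muscle 7.14% rose and 0% fell, against 18.1% and 16.4% of all genes. In mutant muscle 0% rose and 7.14% fell, against 16.7% and 13.9%, so these shares were below the background. Of 16 further chemokines and receptors, 2 rose and 2 fell in control and 4 rose and 1 fell in mutant muscle. In control muscle the 12.5% in each direction were below the 18.1% and 16.4% of all genes, and in mutant muscle 25% rose and 6.25% fell, against 16.7% and 13.9%. Cxcl14, a chemokine of stromal tissue, rose by 1.38 ± 0.13 in control and by 1.52 ± 0.15 in mutant muscle, and was 0.74 higher in denervated mutant than in denervated control muscle (limma adjusted p = 0.0118). Cxcl10, an interferon-induced chemokine, rose in control muscle (log2 1.87 ± 0.32, limma adjusted p = 0.000699), and its mutant value of 0.37 did not pass (limma adjusted p = 0.481). Ackr3, a scavenging chemokine receptor, fell by 1.70 and 1.83. Ccl9 rose by 1.96 ± 0.27 in mutant muscle, where its innervated mean was 1826 against 4624 in innervated control muscle.

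Markers of other cells moved with some of these groups, and their part in the results was not tested. Most lymphocyte markers were too dim to test, with 2 of 11 T cell, 2 of 7 B cell and 1 of 6 natural killer cell genes tested, of which Cd22 alone passed, falling by 1.69 in mutant muscle. The group means of Cd3d, Cd3e and Cd3g, the defining T cell genes, were 19.4 to 196, within the trp range. Summed T cell signals were 1817 to 2513 in innervated control, 1281 to 2224 in denervated control, 2101 to 4012 in innervated mutant and 1379 to 2220 in denervated mutant muscle. These sums are mostly of genes too dim to test, and Cd8a, at 914 ± 788 (SD, n = 2) in innervated mutant muscle, differed widely between the 2 arrays, so no order was read from them. Of 5 neutrophil genes tested, S100a8 rose by 5.48 ± 0.30 in control and 5.83 ± 0.33 in mutant muscle, and Mmp8 by 2.02 ± 0.58 in mutant muscle. The others did not pass: Mmp8 had -0.38 in control muscle, S100a9 1.14 and 2.10 in control and mutant muscle, Ngp -0.37 and -0.81, and Mmp9 -0.69 and -0.22. Of the untested ones, Mpo averaged 522 in innervated and 206 in denervated mutant muscle, and Camp 346 and 54.6. Summed neutrophil signals were 2569 to 2889, 10120 to 17776, 3230 to 3573 and 18590 to 27016 in the same order of groups. S100a8 carried this difference: without it the sums of the other 8 genes were 2400 to 2731, 1917 to 3086, 2911 to 3200 and 2110 to 3393, and overlapped between denervated and innervated arrays of each genotype. Of 5 mast cell and 5 dendritic cell genes tested, 0 passed in any comparison with limma, and at most 1 of a list had an unadjusted p under 0.05 in a comparison.

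Fibroblast sums were 392291 and 416534 on the innervated mutant arrays, above the 251560 to 353572 of the innervated control arrays, and Schwann cell sums were 31382 and 33728 against 21907 to 25845. No gene of either list passed between genotypes in innervated muscle with limma, and 1 of each had an unadjusted p under 0.05. All 9 fibroblast and all 6 Schwann cell differences were nevertheless above 0, with medians of 0.32 and 0.41. Innervated mutant arrays lay wholly above innervated control arrays for 5 of the 9 and 4 of the 6, against 7.61% of all genes. Muscle fibre markers, which check the tissue, were all tested (12 of 12). Their sums overlapped between the innervated groups (2599231 and 2986468 in mutant, 2533142 to 2806007 in control) and were lower with denervation (1605463 to 2207760 in control, 1588141 to 1939403 in mutant). With denervation 10 of 12 of their genes fell in control and 12 of 12 in mutant muscle (83.3% and 100%), against 16.4% and 13.9% of all genes. Of 11 cell cycle genes, 8 rose in control and 9 in mutant muscle (72.7% and 81.8%), against 18.1% and 16.7% of all genes. Of 10 endothelial markers, 6 fell in control and 5 in mutant muscle (60% and 50%), against 16.4% and 13.9%, and 0 rose. Of 8 satellite cell and myoblast markers, 4 rose in each genotype (50%), against 18.1% and 16.7%, and 0 fell in control and 1 in mutant muscle. The spike-in signal that tracks the scaling of an array was lower on denervated arrays (log2 12.74 to 13.40) than on innervated ones (13.59 to 14.09).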

How the data were processed

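The 11 arrays were grouped by their titles. The deposited values are probe set intensities on a linear scale, which the authors had scaled so that each array's 2% trimmed mean is 2500, which was checked on the values. Which software produced the signals was not given in the sources used here. No further normalization was applied. Of 45101 probe sets, 64 controls were left out of the tests, and the 26170 that exceeded the median of the array on 2 or more of the 11 were tested. The supplied annotation gave 34958 probe sets 1 symbol, 932 several and 9211 no entry, and only those with 1 were used.

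Log2(signal + 16) was fitted with limma 3.58.1 in R 4.3.3, as a mean per group over all 11 arrays, with eBayes (trend) and Benjamini-Hochberg adjustment over the tested probe sets, at 0.05. The 5 comparisons were denervation in each genotype, genotype in each state, and the interaction. The pipeline was tested on simulated data. Control arrays that share a replicate number deviated together from their group means, with correlations of 0.114, 0.217 and 0.303. In the other comparisons the correlations ran from -0.183 to 0.052. The labels do not say that the numbers mark pairs, and correlations this low do not settle it. The main fit has no block, so its standard errors and p-values leave out any pairing of the control arrays. A pairing entered only through the alternatives with the replicate number as a block. No 2 arrays held identical values.

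The members, the further lists and the naming rule were chosen with earlier results of these data known. All members were accounted for, those that passed with values and the rest by range or value, and from each list of further pathway genes up to 3 of the smallest p in each comparison were named among those that passed. The other class II genes and the neutrophil genes that did not pass were named after their values were seen. Alternatives were another pseudocount (64), no filter, 3 other scalings, the mean of a gene's probe sets, eBayes without trend, only the groups compared, the replicate number as a block, and each array left out in turn.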

Additional observations from a re-analysis of the deposited data

Results flagged for a closer look

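The denervation change of 3 genes differed between genotypes by the test of that difference. Gpnmb changed more in mutant than in control muscle by 1.52 on the log2 scale (limma adjusted p = 0.0282), Ptprc by 1.76 (limma adjusted p = 0.0259) and Itgb2 by 2.04 (limma adjusted p = 0.0276). Over the alternatives, the limma adjusted p ranged from 0.0199 to 0.753 for Gpnmb, from 0.0194 to 0.762 for Ptprc and from 0.0219 to 0.117 for Itgb2. Both innervated mutant arrays were low for Ptprc (961 and 1018) and Itgb2 (372 and 356), and all 3 denervated mutant arrays were high for Gpnmb (16822, 22144 and 20349). The dim second probe set of Gpnmb had a difference of -0.29 (limma adjusted p = 0.973), opposite in sign. Groups of 3 or 2 arrays were too small to look for single outlying arrays.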

How the results depend on the processing

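No call changed direction under any alternative run. For denervation in control, 14 genes passed, and 37 passed with arrays centred on the spike-ins; the other alternatives gave 11 to 19, and the replicate block gave 12 over all arrays and 19 within the groups compared. Of the 14 calls, 10 passed under every alternative run and Aif1, Cd53, Cx3cr1 and Fcgr1 did not; Fcgr1 (limma adjusted p = 0.165) and Cd53 (0.0709) were lost with the mean of a gene's probe sets. For denervation in mutant, 30 passed and the alternatives gave 23 to 38, with 17 of the 30 calls passing under every one. Sla, counted among the 17, was not tested with the mean of its probe sets and passed in the 20 alternatives where it was tested. The mean of probe sets lost 6 of the 30, among them Ptprc (limma adjusted p = 0.597), whose second probe set is dim. Gpnmb between genotypes in denervated muscle passed, and no gene passed in innervated muscle, under every setting run. Of the 3 interaction calls, 0 remained with spike-in centring, 0 with eBayes without trend, 0 with the replicate block in either form and 1 with the mean of probe sets, while leaving out an array gave 0 to 5. The replicate block changed no other count by over 1.5 times. With 2 innervated mutant arrays, and group means of 13 genes within the trp range there, differences involving that group are the least certain.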
